A study of Mus musculus with 4 samples.

Results

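A set of 10 genes of de novo lipogenesis and fatty acid desaturation were followed in cardiac mesenchymal progenitors (CMPs) before and after transduction of Oct4, Sox2, Klf4 and c-Myc (OSKM). The 10 genes were Acly, Me1, Acaca, Acacb, Fasn, Elovl6, Scd1, Scd2, Fads1 and Fads2, of 16659 genes measured on the arrays. They were chosen as the named enzymes of the pathway, and a probe was counted for a gene when its gene name on the array, or an older synonym of it, was 1 of these 10. All 10 were found under their present symbols, by 18 probes, and all 18 probes were well above background on at least 1 array. Acaca had 4 probes, Me1 had 3, Acacb, Acly and Fads2 had 2 each, and the other 5 genes had 1 probe each.

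CMPs are Sca-1+ mesenchymal cells cultured from the heart of adult C57BL/6 mice. The control was untreated CMPs, labelled as day 0, and the other samples were CMPs carrying OSKM, delivered by Sendai virus (OSKM-CMPs), at days 4, 6 and 8. Total RNA of each of the 4 conditions was labelled with Cy3 and hybridised to 1 Agilent mouse gene expression array. By the study's methods the transduced cells were kept in a reprogramming medium that differs from the growth medium of CMPs. Days were counted there from the change to this medium, 1 day after transduction. No virus without the factors and no untreated CMPs of a later day were on the arrays, so that the factors, the virus, the medium and the time in culture cannot be told apart. No condition had a replicate, and no p-value is given. Nothing in the labels says whether the conditions came from 1 culture or several.

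De novo lipogenesis builds fatty acids from carbohydrate carbon. Citrate leaves the mitochondrion and is split to acetyl-CoA by Acly, acetyl-CoA is carboxylated to malonyl-CoA by Acaca and Acacb, and Fasn joins these units to palmitate with NADPH that comes in part from Me1. Elovl6 lengthens palmitate to stearate, Scd1 and Scd2 put a double bond at the delta-9 position to give monounsaturated fatty acids, and Fads2 and Fads1 are the delta-6 and delta-5 desaturases that make long polyunsaturated fatty acids from dietary precursors. White adipocytes express the pathway up to Scd1 under the control of insulin, SREBP1c, ChREBP and LXR, and store the product as triglyceride.

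The sequences before the start of 3 of these genes are shown because the genes are examples of a late rise (Fasn), an early rise (Elovl6) and a fall (Fads2) on the arrays. They are the 250 bases before the gene start in RefSeq, build GRCm38.p6, written 5′ to 3′ on the strand of the gene, which is the minus strand at chr11:120824548-120824797 for Fasn, the plus strand at chr3:129532136-129532385 for Elovl6 and the minus strand at chr19:10101504-10101753 for Fads2. Capitals mark matches to CCAAT, CCACNCCC or GGGCGG.
Fasn: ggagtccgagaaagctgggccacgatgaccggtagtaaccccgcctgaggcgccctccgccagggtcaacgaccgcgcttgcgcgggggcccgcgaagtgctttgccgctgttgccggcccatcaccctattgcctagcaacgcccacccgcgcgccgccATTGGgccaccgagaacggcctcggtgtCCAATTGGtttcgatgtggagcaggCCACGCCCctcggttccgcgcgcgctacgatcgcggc
Elovl6: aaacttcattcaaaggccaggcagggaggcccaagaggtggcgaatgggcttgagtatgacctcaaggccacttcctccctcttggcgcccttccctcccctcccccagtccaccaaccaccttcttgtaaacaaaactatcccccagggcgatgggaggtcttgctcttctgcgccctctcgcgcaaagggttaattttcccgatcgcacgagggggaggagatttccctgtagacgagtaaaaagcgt
Fads2: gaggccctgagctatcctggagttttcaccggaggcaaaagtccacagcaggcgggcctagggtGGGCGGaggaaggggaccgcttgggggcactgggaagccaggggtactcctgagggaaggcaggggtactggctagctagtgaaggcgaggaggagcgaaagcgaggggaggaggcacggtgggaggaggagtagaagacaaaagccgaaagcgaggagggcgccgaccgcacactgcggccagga

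The following motifs were searched on both strands: CCAAT (the NF-Y box), CACGTG (the E-box of Myc, USF and ChREBP), TCACNCCAC (a sterol regulatory element), CCACNCCC (the CACC box of Klf factors), GGGCGG (the Sp1 box) and the direct repeat of PPAR and RXR (2 copies of AGGTCA with any 1 base between them). Of 32841 mouse promoters of the same length, 33.9% held CCAAT, 6.02% CACGTG, 1.05% TCACNCCAC, 15.9% CCACNCCC, 32.7% GGGCGG and 0.0335% the direct repeat. The Fasn sequence held 3 matches to CCAAT, which began 90, 62 and 59 bases before the start, the last pair being the overlapping strands of 1 palindrome. It also held 1 match to CCACNCCC that began 37 bases before the start. The Fads2 sequence held 1 GGGCGG, which began 186 bases before the start, and the Elovl6 sequence held no match. RefSeq gave 8 promoters for 7 of the 10 genes. Of those not printed, the Acly promoter held GGGCGG 4 times, the Acacb promoter held CCAAT 1 time, 1 promoter of Me1 held GGGCGG 3 times and the other held CCAAT 1 time, and the Acaca promoter held no match. CACGTG, TCACNCCAC and the direct repeat had 0 matches in the 8 promoters. A match is a match of letters and does not show binding.

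On the arrays, 4 of the 10 genes were at least 2-fold higher than the control at day 8 and 2 lower, where 14.3% of all genes tested were higher and 11.7% lower. Scd1, Fasn, Elovl6 and Acaca were higher, by 7.55-fold, 4.90-fold, 2.57-fold and 2.13-fold, and Fads2 and Fads1 were lower, by 5.49-fold and 3.25-fold. The rise of Elovl6 and the fall of Fads2 were already of that size at day 4, whereas Fasn first passed 2-fold at day 6 and Scd1 and Acaca at day 8. In a culture measured as a whole, fewer cells of a type and less RNA per cell cannot be told apart. Levels are given below as the log2 of the processed signal with the 75th percentile of the array set to 0, as the mean over the probes of a gene. The probes of a gene can lie far apart in level, so such a mean serves to compare arrays and not genes. Each ± is 1 SD from the error model of the scanner software, which is meant for measurement on the array and leaves out cultures and RNA preparation. For bright genes with 1 probe it was about the same, 0.14 per array. It shrinks with the number of probes or spots averaged, as if their errors were independent, so an error shared by a whole array is not covered. A difference is said to exceed the error when it is larger than 2 SD, which is a cutoff and not a test.

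**Figure D1:**
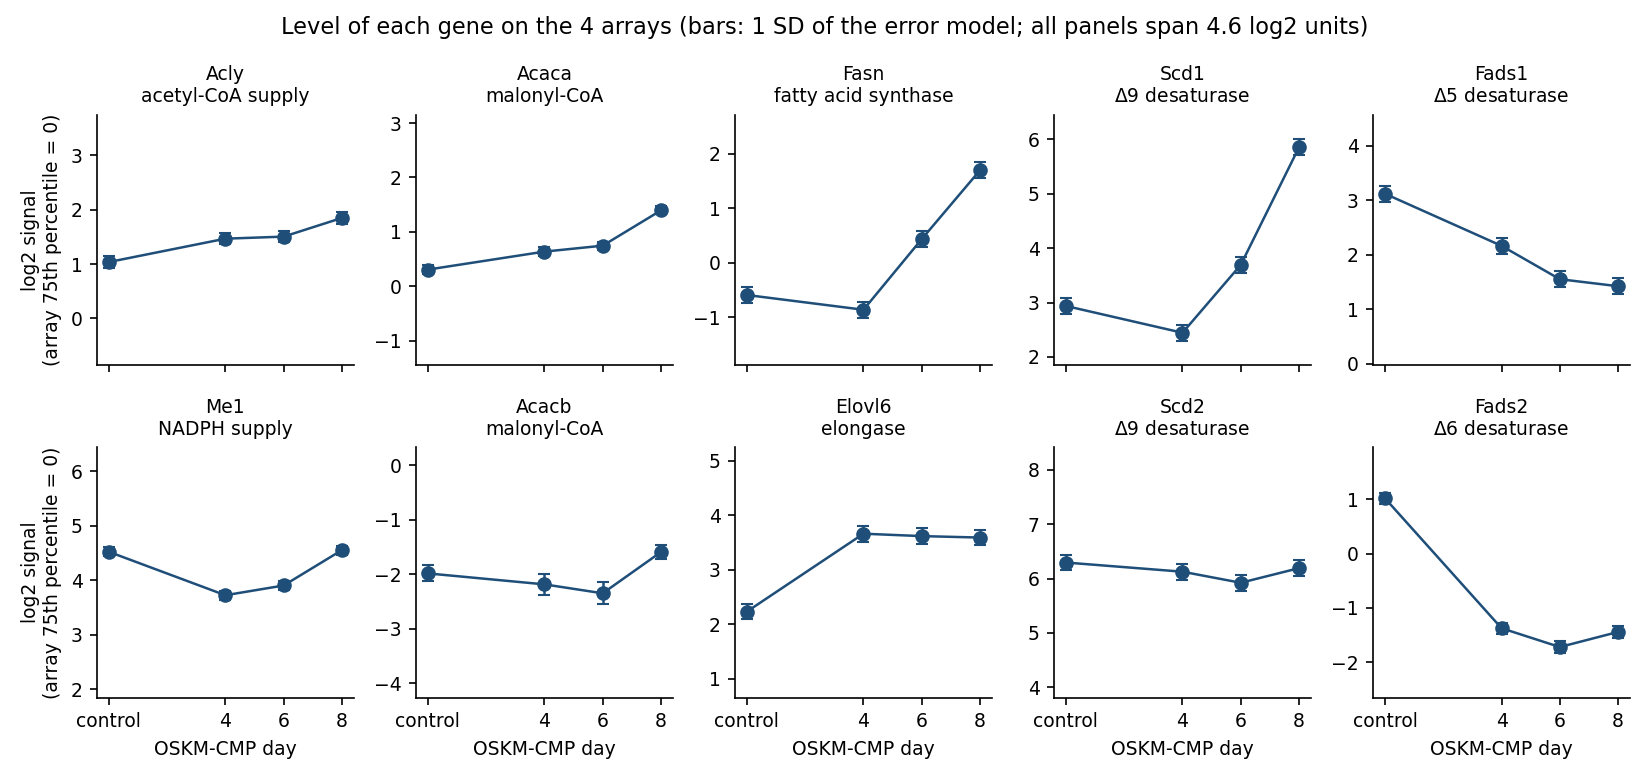
Level of each of the 10 genes on the 4 arrays, as the log2 processed signal with the 75th percentile of the array at 0 (y axis), against the day of OSKM-CMPs with the control first (x axis). Points are the mean over the probes of a gene, bars are 1 SD of the error model, and every panel spans the same range; Scd1 and Fasn are highest at day 8, Elovl6 is level from day 4 on, and Fads1 and Fads2 are highest in the control.

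In the supply of acetyl-CoA and NADPH, neither enzyme was 2-fold different from the control at any day. Acly, the ATP citrate lyase, had a level of 1.04 in the control, then 1.47, 1.5 and 1.85 at days 4, 6 and 8. Each is the mean of 2 probes far apart in level, at 4.65 and -2.58 in the control. The control was the lowest of the 4 arrays and day 8 the highest, and days 4 and 6 did not differ beyond the error. The step from the control to day 4 is less settled. It was 0.29 with the array median as the scale and 0.32 ± 0.22 for 1 of the 2 probes, both within the error. Against the control, Acly was higher by 0.43 ± 0.15, 0.47 ± 0.15 and 0.81 ± 0.15 at days 4, 6 and 8 on the log2 scale, which is 1.75-fold at day 8, and its 2 probes gave 0.72 and 0.90 at that day. Me1, the cytosolic malic enzyme, stood at 4.52 in the control, then 3.73, 3.91 and 4.56 at days 4, 6 and 8. Its levels at days 4 and 6 were below both other arrays, with differences from the control of -0.80 ± 0.12 and -0.62 ± 0.12, and at day 8 the difference was 0.03 ± 0.12, within the error. The 3 Me1 probes lay between -0.06 and 0.12 at day 8.

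Of the 2 acetyl-CoA carboxylases, Acaca was at least 2-fold higher at day 8 and Acacb was not 2-fold different at any day. Acaca, the cytosolic form that feeds fatty acid synthesis, was at 0.31 in the control, then 0.64, 0.75 and 1.40 at days 4, 6 and 8. Each is the mean of 4 probes far apart in level, at 3.69, 3.62, -2.63 and -3.45 in the control. Day 8 was the highest array and the control the lowest, and days 4 and 6 did not differ beyond the error. Day 4 was above the control by 0.33 ± 0.11 over the 4 probes, but no probe alone exceeded its error there. That difference was 0.19 with the array median as the scale, within the error. Acaca rose by 1.09 ± 0.11 at day 8, just past 2-fold, with its 4 probes between 0.81 and 1.30. The difference was 0.82 with the array median as the scale and 0.86 after normexp correction with quantile normalization, under 2-fold in both. One of the 4 probes, of a cDNA named Acaca on the array, is placed on chromosome 12 by the array annotation while the others are on chromosome 11; it gave 1.15. Acacb, the mitochondrial form whose malonyl-CoA restrains fatty acid oxidation, was at -1.98 in the control, then -2.19, -2.35 and -1.59 at days 4, 6 and 8. Its 2 probes were at 0.27 and -4.24 in the control. The differences from the control at days 4 and 6 were within the error. At day 8 the difference was 0.39 ± 0.19 over both probes, but neither probe alone exceeded its error (0.16 ± 0.20 and 0.63 ± 0.32), and the value was 0.11 after normexp with quantile normalization and 0.13 with the array median as the scale, both within the error. The probes disagreed in sign at day 4, with -0.54 and 0.14. The probe with the lower value there was not well above background at days 4 and 6, and it was the 1 probe of the 18 that did not pass on all arrays.

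Fasn, the fatty acid synthase, rose late. Its level was -0.59 in the control, then -0.87, 0.43 and 1.70 at days 4, 6 and 8. The control and day 4 did not differ beyond the error, but the difference was -0.41 with the array median as the scale, just past it. Days 6 and 8 each stood above the array before. Against the control, the Fasn difference was -0.27 ± 0.20, 1.03 ± 0.20 and 2.29 ± 0.20 at days 4, 6 and 8. The day 6 value is close to 2-fold and was between 0.85 and 0.99 under 4 other scalings, whereas the day 8 value stayed above 2-fold under each alternative run. From day 4 to day 8 Fasn rose 5.91-fold, a log2 change of 2.56 ± 0.20 that is larger than that of 99.3% of 16209 genes. Its 1 probe lies at chr11:120667666-120667725 on mm9, the build of the array annotation.

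Elovl6, the elongase that turns palmitate to stearate, rose early and then stayed level. It was at 2.23 in the control, then 3.66, 3.62 and 3.59 at days 4, 6 and 8. The control was the lowest array, and days 4, 6 and 8 did not differ from each other beyond the error. Against the control the changes were 1.43 ± 0.20, 1.39 ± 0.20 and 1.36 ± 0.20, and between day 4 and day 8 the difference was -0.07 ± 0.20. The Elovl6 probe lies at chr3:129341248-129341307 on mm9.

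Of the 2 stearoyl-CoA desaturases, which carry out the same reaction, Scd1 rose late and Scd2 was not 2-fold different between any arrays. Scd1, the form that is typical of liver and white fat, was at 2.94 in the control, then 2.44, 3.69 and 5.85 at days 4, 6 and 8. All 4 arrays differed from each other beyond the error, with day 4 the lowest and day 8 the highest, except that day 4 was within the error of the control after quantile normalization (-0.40) and normexp with it (-0.37). Against the control, the Scd1 difference was -0.49 ± 0.20 at day 4 and 0.76 ± 0.20 at day 6, and at day 8 it had risen by 2.92 ± 0.20, a change above that of 96.7% of genes. From day 4 to day 8 Scd1 rose 10.6-fold, more than 99.7% of genes, and the step between days 6 and 8 was 4.47-fold. Scd2, the form that is typical of brain and of cells in culture, was at 6.29 in the control, then 6.12, 5.92 and 6.19 at days 4, 6 and 8. With the 75th percentile as the scale, no pair of arrays differed beyond the error for Scd2. Its difference from the control was -0.10 ± 0.20 at day 8. At day 6 that difference was -0.37 ± 0.20, but -0.50 with the array median as the scale, past the error. The probes lie on chromosome 19 of mm9 at chr19:44469387-44469446 for Scd1 and chr19:44381024-44381083 for Scd2, and whether either takes signal from the other transcript was not tested.

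The 2 desaturases of the polyunsaturated pathway fell. Fads2, the delta-6 desaturase, was at 1.01 in the control, then -1.37, -1.72 and -1.44 at days 4, 6 and 8. The control was far above the other 3 arrays, which lay between -1.72 and -1.37. Fads2 fell by 2.39 ± 0.15 at day 4 and by 2.73 ± 0.15 and 2.46 ± 0.15 at days 6 and 8, and its 2 probes gave -2.71 and -2.20 at day 8. At day 4 only 2.5% of genes had a lower change. Fads1, the delta-5 desaturase, was at 3.12 in the control, then 2.16, 1.55 and 1.42 at days 4, 6 and 8. The control was above day 4 and day 4 above day 6 beyond the error, and days 6 and 8 did not differ beyond it. The Fads1 difference was -0.96 ± 0.20 at day 4, just short of 2-fold, and Fads1 fell by 1.57 ± 0.20 at day 6 and by 1.70 ± 0.20 at day 8. The Fads1 probe lies at chr19:10270530-10270589 on mm9, and those of Fads2 at chr19:10137760-10137819 and chr19:10163229-10163288.

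**Figure D2:**
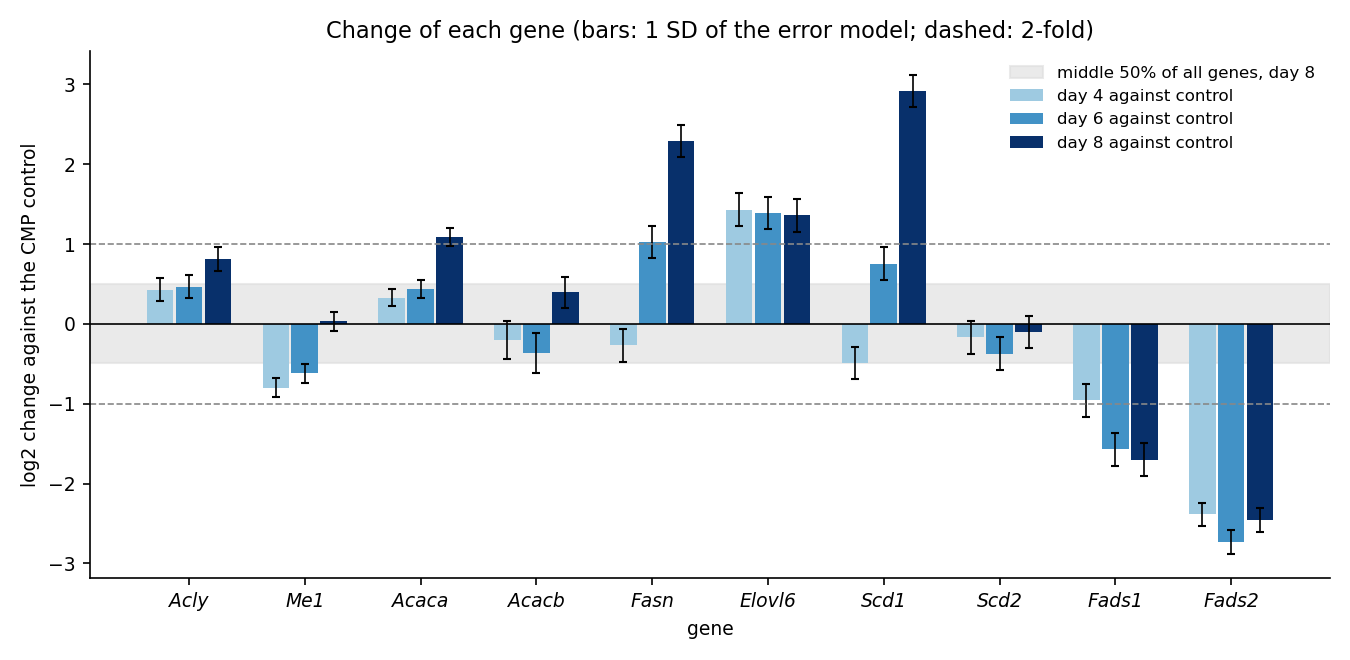
Log2 change of each gene against the control (y axis) at days 4, 6 and 8, with the genes in the order of the pathway (x axis). Error bars are 1 SD of the error model, dashed lines mark 2-fold and the grey band holds the middle 50% of all genes at day 8; Scd1 and Fasn reach 2.92 and 2.29 at day 8, and Fads2 lies below -2 on all 3 days.

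At day 4, 1 of the 10 genes (Elovl6) was at least 2-fold higher and 1 (Fads2) lower, where 11.8% of all genes tested were higher and 9.69% lower. At day 6 the counts were 2 higher (Elovl6 and Fasn) and 2 lower (Fads1 and Fads2), against 12.6% and 11.6% of all genes. At day 8 they were 4 higher and 2 lower, against 14.3% and 11.7% of all genes. The median change of the 10 genes was -0.24, 0.04 and 0.60 at days 4, 6 and 8, where the median of all genes was -0.02, -0.04 and -0.04. The counts at day 4 are near those of all genes. Those at day 6, and the count of lower genes at day 8, are not far from them for a list of 10 genes. All 3 comparisons share the control array, so that an error of that array enters each of them.

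The comparison of day 8 with day 4 leaves the control array out. In it, 2 of the 10 genes (Scd1 and Fasn) were at least 2-fold higher and 0 lower, where 4.79% of all genes were higher and 3.92% lower. The median of the 10 genes was 0.49 and that of all genes -0.02, and the former was 0.26 after normexp with quantile normalization, 0.22 over probes above background on all arrays and 0.14 with the brightest probe of each gene. Me1 (0.83 ± 0.12), Acaca (0.76 ± 0.11) and Acly (0.38 ± 0.15) were higher at day 8 than at day 4 beyond the error but by less than 2-fold, and Fads1 was lower, at -0.74 ± 0.20. Acacb was at 0.59 ± 0.22, but this came from the probe that was not well above background at day 4, which gave 1.17, and the other probe gave 0.02 ± 0.20. The Acly difference was 0.26 with the array median as the scale and 0.19 with the brightest probe, both within the error. Elovl6, Scd2 and Fads2 lay between -0.07 and 0.07. Between days 4 and 6, 2 genes (Fasn, 1.30, and Scd1, 1.25) were at least 2-fold higher and 0 lower, against 2.56% and 2.39% of all genes, and between days 6 and 8 the same pair (1.27 and 2.16) was higher and 0 lower, against 2.27% and 0.739%.

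**Figure D3:**
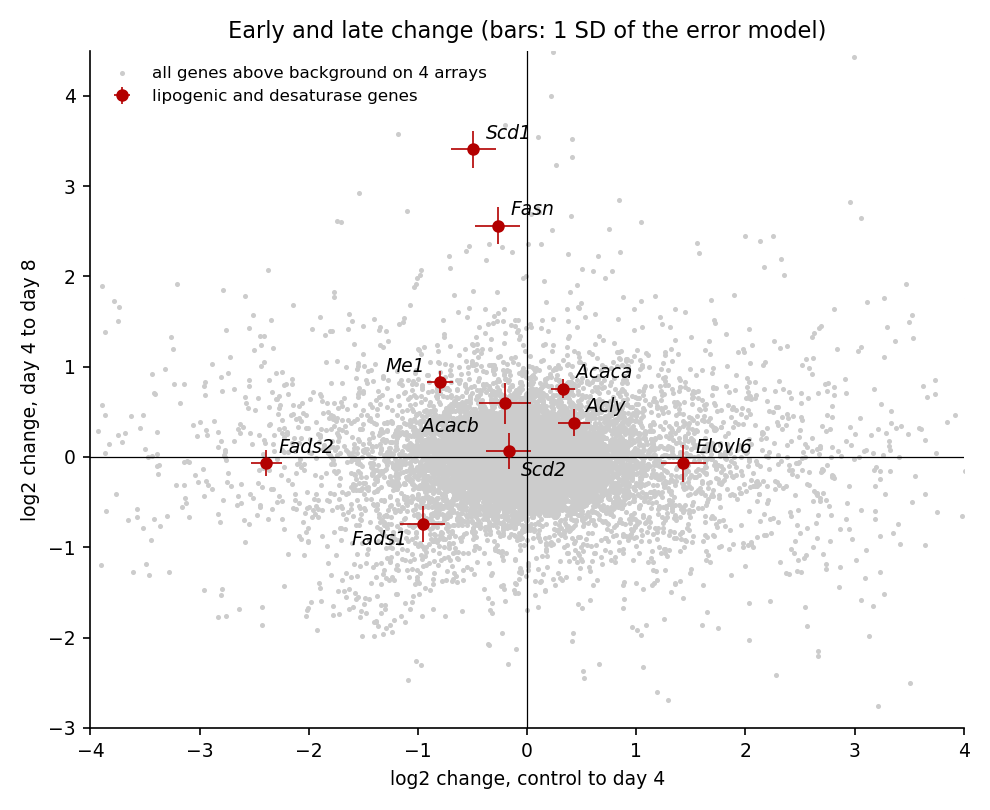
Log2 change from the control to day 4 (x axis) against that from day 4 to day 8 (y axis) for the 10 genes (red, bars 1 SD of the error model) and for 13761 genes whose probes were all above background on the 4 arrays (grey; 106 of them lie outside the axes). Scd1 and Fasn lie high near the centre of the x axis, and Elovl6 and Fads2 lie far to the right and left near 0 on the y axis; both axes use the day 4 array, with opposite sign.

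The genes of other lists around the pathway were counted in the same way. The shares of all genes at day 8, 14.3% higher and 11.7% lower, are the background of each count at that day. Of 8 genes that supply carbon and NADPH, 3 were at least 2-fold higher at day 8 and 0 lower, with a median of 0.66. Pcx, the pyruvate carboxylase that replenishes oxaloacetate, rose by 2.88 ± 0.20, Acss2, which makes acetyl-CoA from acetate, by 2.08 ± 0.15, and Idh1, a cytosolic source of NADPH, by 1.21 ± 0.20. The rise of Idh1 was under 2-fold with the array median as the scale. Pcx was 0.65 above the control at day 4 and 2.05 at day 6. Most of the Pcx rise, like those of Fasn and Scd1, thus came after day 4.

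Of 18 other genes of elongation and desaturation, 16 were measured, and Elovl2 and Elovl3 were not above background on any array. Of the 16, 4 were at least 2-fold higher at day 8 and 2 lower, the lower share (12.5%) being near that of all genes. The median was -0.15, with 0.0694 under quantile normalization and -0.42 with the array median as the scale, so its sign is not settled. Elovl7, an elongase with a low level of -3.86 in the control, rose by 2.71 ± 0.24 at day 4. It was 2.57 ± 0.24 above the control at day 8, the early course also seen for Elovl6. Scd3, another delta-9 desaturase, rose by 1.43 ± 0.16, with its 3 probes between 0.95 and 1.80 at day 8 and between -0.46 and 1.65 at day 4. Not all Scd3 probes were well above background in the control, and whether they take signal from Scd1 was not tested. Hacd2 and Hacd3, dehydratases of the elongation cycle, rose by 1.33 ± 0.12 and 1.30 ± 0.20. Fads3, the neighbour of Fads1 and Fads2 in the Fads gene cluster, fell by 1.65 ± 0.14 at day 4 and by 1.57 ± 0.14 at day 8, so that the 3 genes of this cluster were at least 2-fold lower at day 8. Fads6, another gene of the family, named after its values were seen, differed by -0.75 ± 0.36, with its 2 probes at -1.82 and 0.31. This is a difference near background. The level of Fads6 was -4.41 in the control, and it was not well above background at days 4 and 6, nor by all its probes at day 8. Hacd4 fell by 1.02 ± 0.14, with its 2 probes at -1.28 and -0.76.

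Of 17 regulators of lipogenesis, 6 were at least 2-fold higher at day 8 and 1 was lower, with a median of 0.18 that was -0.0910 with the array median as the scale. Srebf1, which encodes the SREBP1 factors, was at -0.79 in the control, then -1.16, 0.43 and 1.02 at days 4, 6 and 8. The control and day 4 did not differ beyond the error, and the change from the control was 1.21 ± 0.20 at day 6 and 1.80 ± 0.20 at day 8. Srebf2, the relative that chiefly drives sterol genes, differed by -0.69 ± 0.15 at day 8. Mlxipl, which encodes ChREBP, rose by 2.21 ± 0.15, but its 2 probes gave 0.86 and 3.56. Insig1, which holds SREBP in the endoplasmic reticulum, rose by 1.49 ± 0.20, and Nr1h3, which encodes LXR alpha and is named here after its values were seen, was -0.71 ± 0.14 from the control at day 4 and rose by 1.38 ± 0.14 at day 8. Thrsp, a nuclear protein of lipogenic tissues, was not well above background in the control and was at least 1065-fold higher at day 8, taking for the control the lowest signal well above background. Prkaa2, a catalytic subunit of AMPK, rose by 3.48 ± 0.21, and Mid1ip1, a relative of Thrsp that activates acetyl-CoA carboxylase, fell by 2.09 ± 0.20 at day 4 and by 2.15 ± 0.20 at day 8.

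**Figure D4:**
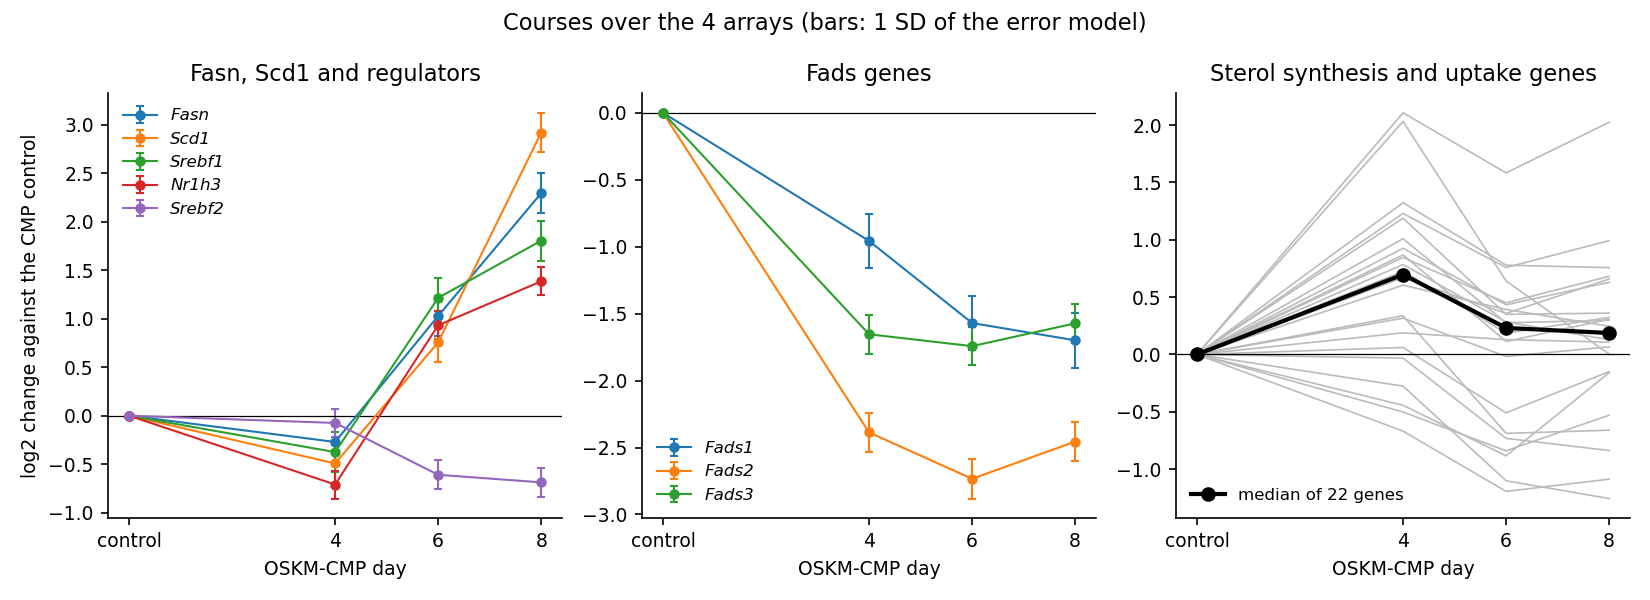
Log2 change against the control (y axis) over the 4 arrays (x axis) for Fasn, Scd1 and 3 regulators (left), the 3 Fads genes (middle) and 22 genes of sterol synthesis and uptake (right, grey, with the median in black); bars are 1 SD of the error model. Fasn, Scd1, Srebf1 and Nr1h3 lie below 0 at day 4, Fasn and Srebf1 within the error on the scale drawn, and above 1 at day 8. Srebf2 is at -0.07 at day 4 and -0.69 at day 8. The Fads genes are lowest at day 6 or day 8, and the sterol median is highest at day 4.

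Over the 3 changes from the control, the 5 genes with the course nearest to that of Fasn, by Euclidean distance among 13760 genes on 4 arrays, were Gm1987 (0.34), Igfbp6 (0.40), Chpt1 (0.42), Srebf1 (0.53) and Vit (0.63). Of these Srebf1 alone belonged to the lists above. The genes nearest to Fads2 were F730043M19Rik (0.06), Tafa5 (0.16), Rras2 (0.20), Ankrd37 (0.23) and Pbp2 (0.24), and all 5 lay between -2.84 and -2.25 on each of the 3 days. With 3 values per gene, many genes share a course.

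Genes of triglyceride assembly, the step that uses the fatty acids, were higher at day 8 in 7 of 15 and lower in 0, with a median of 0.98. Gpd1, which makes the glycerol phosphate backbone, rose by 10.34 ± 0.24, Dgat2, the acyltransferase of the last step, by 6.65 ± 0.20, Acsl1, an acyl-CoA synthetase, by 4.21 ± 0.15, and Gpat3, the acyltransferase of the first step, by 3.93 ± 0.20. These 4 values are larger than that of any of the 10 lipogenic genes, the largest of which was 2.92. The starting levels differed, and Gpd1 was low in the control, at -3.96, where Scd1 was at 2.94. Of 12 genes of fatty acid oxidation, 3 were higher at day 8 and 0 lower, with a median of 0.28 that was 0.0142 with the array median as the scale. Acadl and Acadm, acyl-CoA dehydrogenases, rose by 1.29 ± 0.20 and 1.16 ± 0.20, and Acadm was under 2-fold with the array median as the scale. Cpt1b, a carnitine palmitoyltransferase, was not well above background in the control and was at least 2.74-fold higher.

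The 22 genes of sterol synthesis and uptake, which share SREBP control with lipogenesis, had their highest median at day 4. At day 4, 6 of them were at least 2-fold higher and 0 lower, with a median of 0.70, where 11.8% of all genes were higher and 9.69% lower. At day 8, 1 was higher and 2 lower, with a median of 0.19, and the lower share was near that of all genes (11.7%). From day 4 to day 8, 1 of the 22 had a positive change and the median was -0.38, while over the same days Fasn and Scd1 rose. Tm7sf2, a sterol reductase, rose by 2.11 ± 0.15 at day 4 and 2.02 ± 0.15 at day 8. Stard4, a sterol carrier, fell by 1.26 ± 0.16 at day 8, with its 2 probes at -1.98 and -0.53.

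**Figure D5:**
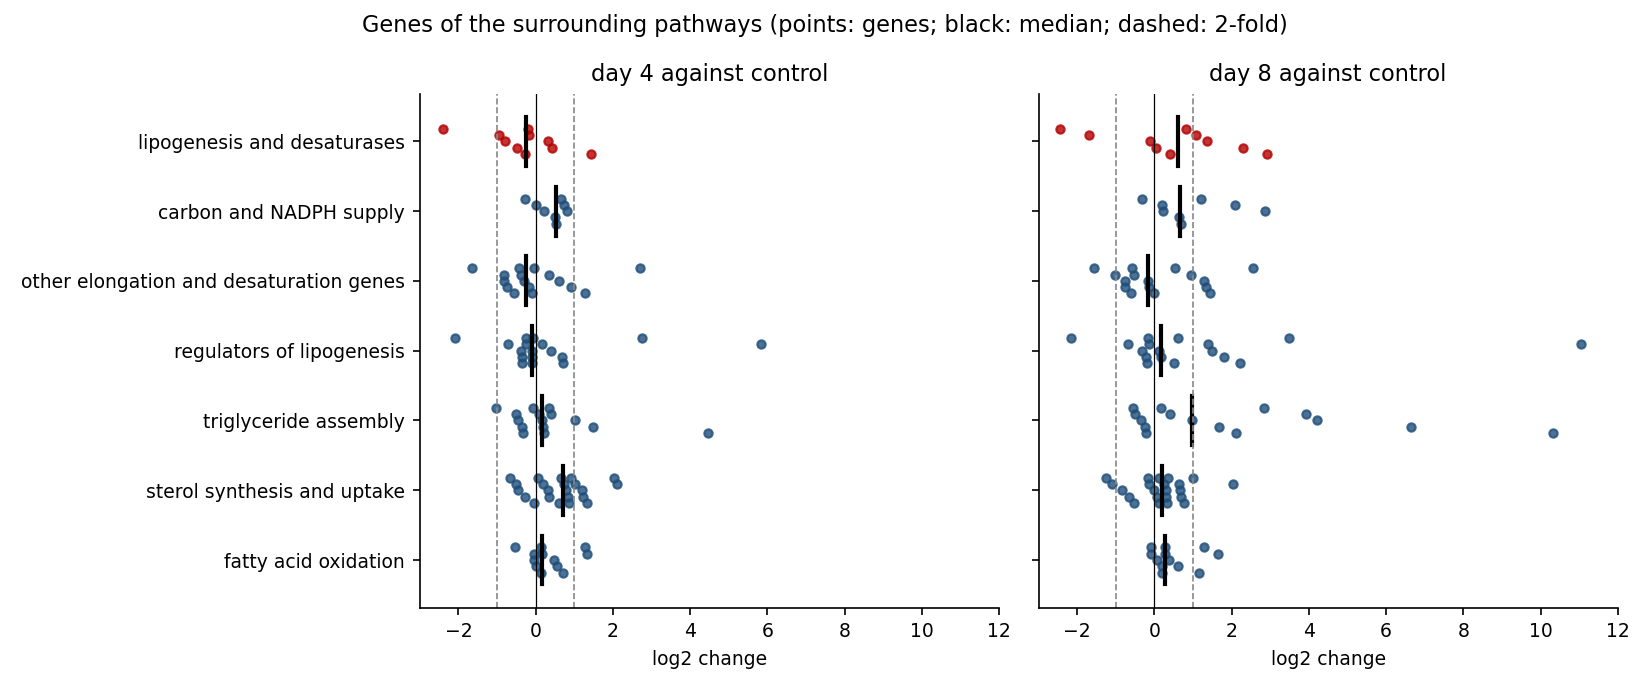
Log2 change at day 4 (left) and day 8 (right) against the control (x axis) of the 10 lipogenic and desaturase genes (red) and of the genes of 6 other lists (blue); each point is 1 gene, black lines are medians and dashed lines mark 2-fold. Triglyceride genes reach 10.34 at day 8 and the sterol median moves from 0.70 to 0.19; genes not well above background in the control, such as Thrsp, are drawn at their measured difference.

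Markers of the cells that such a culture could hold were read beside these results. All 8 mesenchymal markers were above background on the 4 arrays, and their summed signal ran from 640583 in the control to 548369 at day 8. Such a sum follows its brightest probes, and single markers, named here after their values were seen, moved apart. At day 8 Ly6a, which encodes Sca-1, rose by 2.69 ± 0.20, Thy1 fell by 1.78 ± 0.20 and Eng by 1.19 ± 0.20, and the other 5 were not 2-fold different. Of 8 adipocyte markers, 4 were above background in the control and 8 at each later day, with a summed signal of 3161, 18630, 65195 and 124764 in the order of days. Pparg and Cebpa, the factors of adipocyte differentiation, rose by 3.64 ± 0.06 and 2.31 ± 0.20 at day 4, and were at 3.83 ± 0.06 and 3.15 ± 0.20 at day 8. At day 4, 7 of the 8 adipocyte markers were at least 2-fold higher and 1 was lower, against 11.8% and 9.69% of all genes. Of the 7, Cidec, named here after its values were seen, was within the error, at 1.11 ± 1.16. Its 2 probes gave -0.39 and 2.62. Cidec was not above background in the control, and at day 4 not by all its probes. The lower marker was Lpl, named here after its values were seen, which fell by 1.62 ± 0.14 at day 4. At day 8 Lpl was 3.80 ± 0.14 above the control. The summed signal of 5 measured leukocyte markers lay between 176.7 and 253.9 over the arrays, and at day 8 Cd68 rose by 1.56 ± 0.42, Tyrobp was at least 1.58-fold lower and Ptprc differed by 0.02 ± 0.36. That of 4 endothelial markers lay between 420.7 and 678.8, and at day 8 Cdh5 was at least 11.9-fold lower, Tek fell by 2.70 ± 0.27, and Pecam1 and Kdr were not 2-fold different. That of 5 measured cardiomyocyte markers lay between 1708 at day 8 and 4653 in the control, of which Tnnt2 alone made 4604. At day 8 Tnnt2 fell by 1.60 ± 0.20, while Tnni3 and Myh6, not well above background in the control, were at least 3.28-fold and 1.90-fold higher. The part that these shifts and the number of adipocytes have in the changes of the 10 genes was not tested.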

How the data were processed

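Per the file headers, the authors scanned 1-colour Agilent arrays with Feature Extraction 10.7.3.1 (the submitters' notes give 9.5.3), and each deposited file holds a background-subtracted Cy3 intensity, its error and flags for 62976 spots. The authors' deposited normalized table holds the log2 of the same values with each array shifted by a constant, and was used as an alternative.

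Without 3671 control spots and 87 to 106 outlier spots per array, the log2 signal was averaged by probe (55681 probes). Arrays were scaled by subtracting their own 75th percentile, a signal of 388.5 to 411.1. From 56.6% to 59.6% of probes passed the background flag per array, and no spot was saturated. The 35547 probes that passed on 1 array or more were kept, and those of a gene averaged. RefSeq names (GRCm38.p6) came by accession (26762 probes), symbol (3819) or synonym (639), and positions are given as on the arrays (mm9). A gene was called higher or lower at 2-fold, if above background on 1 of the arrays compared. The number of arrays limits the precision, and no test was possible with 1 array per condition.

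The members, lists and tests were chosen with earlier results of these data known. Beside the 10 genes, those named are, per list, up to 4 rises and 3 falls of at least 2-fold at day 8, with the larger ones first, the genes nearest to Fasn and Fads2, and Srebf1, Srebf2, Mlxipl, Insig1, Pparg and Cebpa. A gene of the sterol list that this rule would name is not reported here. Alternatives were other scalings, normexp (offset 50, limma 3.58.1), other filters and thresholds, the brightest probe and, added after seeing the data, each probe alone. Python 3.11.15, numpy 2.4.6, pandas 2.3.3, matplotlib 3.10.9 and R 4.3.3 were used, and the steps were tested on simulated data.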

Additional observations from a re-analysis of the deposited data

How the results depend on the processing

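No condition has a second array, so the results carry the error of the array alone and a difference between cultures cannot be separated from one between days. Of 120 values of called differences from the control under the alternatives, 120 kept their sign and 114 stayed at least 2-fold; the others were Fasn at day 6 under 4 scalings and Acaca at day 8 under 2. Of 400 values of single genes, 54 moved by more than 1 SD. With quantile normalization alone, normexp with quantile normalization, the array median or the housekeeping genes as the scale, 1 gene was higher at day 6 in place of 2, and with the last 2 of these scales 2 were lower at day 4 in place of 1, Fads1 being the second. Gapdh, often a reference gene, fell by 1.09 at day 8.

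The array median as the scale put the median of all genes at -0.30 at day 8, against -0.04. The same shift applies to each list, and the medians were 0.34 for the 10 genes, 0.40 for carbon and NADPH supply, -0.42 for other elongation and desaturation genes, -0.0910 for regulators, 0.72 for triglyceride assembly, -0.0794 for sterol genes and 0.0142 for fatty acid oxidation. Quantile normalization gave 0.87 for carbon and NADPH supply and 0.0694 for other elongation and desaturation genes. The median of the 10 genes from day 4 to day 8 was 0.26 after normexp with quantile normalization, 0.22 with probes above background on all arrays and 0.14 with the brightest probe, in place of 0.49. At a threshold of 1.5-fold, 3 genes were lower at day 4, and 5 were higher and 1 lower from day 4 to day 8. At 3-fold, 0 were higher at days 4 and 6, 1 was lower at day 6 and 2 were higher at day 8.

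Scd2 at day 8 lay between -0.37 and 0.24, Me1 at day 8 between -0.23 and 0.28 and Acacb at day 4 between -0.40 and 0.14, and their sign is not settled; the cause was not tested. No paired analysis was possible because there was a single array for every condition, which makes at most 1 pair.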
